A study of Mus musculus with 8 samples.

Results

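Hormone-sensing progenitors (Hsp) are luminal cells of the mouse mammary gland that carry transcripts of hormone-sensing cells and of luminal progenitors at once, and they were compared here between mice that had been through a pregnancy and mice that had not. Members were the cells of cluster C1 in the 2 post-involution (PI) libraries and of cluster C2 in the 2 nulliparous (NP) libraries that passed the authors' quality control. This gave 926 cells of the 25010 passing cells of the series, with 265 and 169 cells in the NP mice and 107 and 385 in the PI mice. The series holds 8 libraries, each from 1 C57BL/6N mouse, of which 4 were used. The NP mice were 8 weeks old and the PI mice were taken 11 days after natural weaning, at an age the labels do not give. Both NP mice and PI mouse 2 were in oestrus and PI mouse 1 was in dioestrus, as the study's supplement states. Cells had been sorted for the epithelial surface protein EpCAM and against CD31, CD45 and Ter119. Parity cannot be told apart here from the time since lactation, nor from age.

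The luminal layer of the mammary duct holds hormone-sensing cells, which carry the receptors for oestrogen, progesterone and prolactin and pass those signals to their neighbours through secreted factors, and luminal progenitors (Lp), which give rise to the milk-secreting cells of pregnancy. After weaning, most secretory cells die, the gland is cleared of milk and debris, and an epithelium that looks much like that of a virgin gland remains. Hsp cells carry their name as progenitors of the differentiated hormone-sensing cells (Hsd) of the deposited annotation. The question addressed by this comparison is what an earlier pregnancy leaves behind in these cells.

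C1 and C2 were split from 1 first-step cluster of 934 cells. Only 1 NP cell fell in C1 and 7 PI cells fell in C2, and no cell of either cluster came from gestation or lactation. Stage and cluster are therefore nearly the same label. Genes that set C1 apart from C2 were also among those clustered on. Adding the few cells of the other cluster changed little, with 1778 genes called in place of 1735. UMI counts, in which each captured transcript is tallied once by its molecular barcode, were summed over the Hsp cells of a mouse. The sums held 1889401 to 5173562 UMIs. Levels are counts per 1000000 UMIs of a sum (CPM) after TMM scaling. Of the markers that define the label, all 5 of the hormone-sensing kind (*Esr1*, *Pgr*, *Prlr*, *S100a6*, *Cited1*) and all 3 of the progenitor kind (*Aldh1a3*, *Cd14*, *Kit*) were detected in every sum. As the label was given from these genes, their detection is no separate support for it. The 9 immune markers in the tables summed to between 1.73 and 5.77 CPM. The 10 basal markers summed to 275 and 138 CPM in the NP mice and 60.9 and 249 CPM in the PI mice, and their part in the results was not tested.

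The Hsp libraries stood apart from other luminal cells in depth. The median Hsp cell held 16399 and 16877 UMIs in the NP mice and 16314 and 11580 in the PI mice. In the same mice the median Lp cell held 7768, 6597, 6484 and 5579 UMIs, and the median Hsd cell 10163, 10309, 7179 and 5638. The Hsp median was thus 0.915, 0.998, 1.19 and 1.03 times the sum of the Lp and Hsd medians of the mouse. Doublets had been gated out at the sort and 1 cluster of doublets had been removed by the authors, and neither C1 nor C2 was that cluster. The authors' search took in only clusters rarer than the maximum doublet rate they state. Hsp cells made up 12.2% and 8.22% of passing cells in the NP mice and 7.38% and 9.18% in the PI mice. Whether droplets that held 2 cells contribute to C1 and C2 was not tested, and the levels of Lp and Hsd cells of the same mice are given beside the results for this reason.

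Of 10677 genes tested between the 2 PI and the 2 NP mice, 1735 (16.2%) passed an adjusted p of 0.05, with 1009 (9.45%) higher in PI and 726 (6.8%) lower. Among these, 416 rose and 303 fell by 2-fold or more. The count came to 825 genes without NP mouse 1, to 862 without NP mouse 2 and to 807 with DESeq2. The median log2 fold change over all tested genes was -0.02. Adjusted p-values below are from edgeR over all tested genes, and the value after ± is the SE of a log2 fold change from its fit to 2 mice a group. In 59.3% of tested genes the 2 groups of mice did not overlap. The naming rule required this of the largest rises and falls, so there it is no result. In the other named genes that passed the test, both PI mice also lay on the same side of both NP mice. The lists that moved most as groups were milk proteins, genes of mucosal defence, genes of the acute phase and of involution, and genes of milk fat, all upwards, while ligands of the EGF family and targets of oestrogen and progesterone were the lists with the lowest medians of those drawn. Some genes are in more than 1 list.

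**Figure D1:**
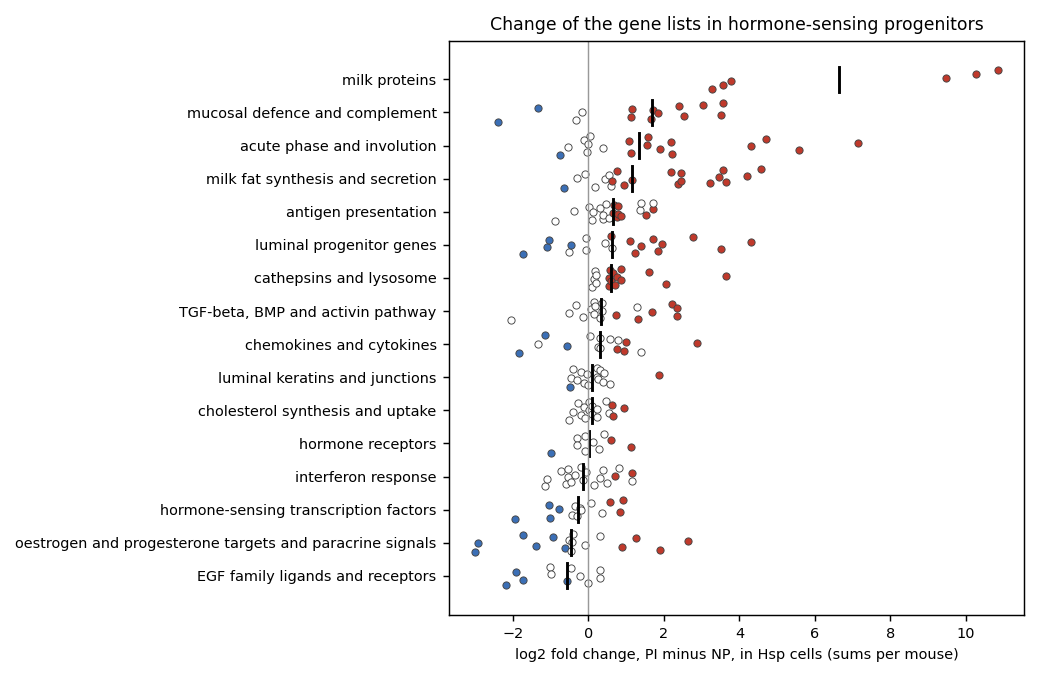
Log2 fold change (PI minus NP) of each tested gene in 16 gene lists, 1 point per gene, with genes that passed the test filled in red (higher in PI) or blue (lower) and the list's median as a black bar. All 6 milk protein genes lie to the right, with a median of 6.63, and 4 of the 11 EGF family genes are called lower with none called higher.

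Milk protein transcripts were higher in PI than in NP Hsp cells 11 days after weaning, and apart from *Csn3* the tested genes lay under 5 CPM in both NP mice. All 6 tested genes of the list rose, out of 8 listed, and the median log2 fold change was 6.63. The caseins are the main proteins of milk and are encoded side by side on chromosome 5. *Csn1s1*, αS1-casein (chr5:87666208-87682578 of GRCm38), was at 2.84 and 1.5 CPM in NP and 2548 and 3179 CPM in PI mice. Both PI mice lay far above both NP mice (log2 fold change 10.26 ± 0.31, adjusted p = 2.84e-09). *Csn2*, β-casein (chr5:87692624-87699630), was at 0.379 and 0.299 CPM in NP and 639 and 773 CPM in PI mice, and the NP values rest on 3 UMIs in all. That is a ratio of 2110 with a 95% counting interval of 720 to 10200 (adjusted p = 1.79e-09). *Csn1s2a*, another α-casein (chr5:87774567-87788797), was at 0.379 and 0.598 CPM in NP and 271 and 432 CPM in PI mice (log2 fold change 9.48 ± 0.38, adjusted p = 4.88e-08). *Csn3*, κ-casein, which keeps the others in solution (chr5:87925579-87932665), was already present in NP mice at 183 and 344 CPM and stood at 3213 and 3000 CPM in PI mice (log2 fold change 3.56 ± 0.27, adjusted p = 6.64e-06). *Lalba* encodes α-lactalbumin, with which lactose is made, and was at 4.16 and 1.2 CPM in NP and 53.2 and 32.9 CPM in PI mice. *Wap*, the whey acidic protein, was at 0.568 and 0.299 CPM in NP and 3.13 and 5.64 CPM in PI mice. Both passed (3.77 ± 0.37 and 3.28 ± 0.64 on the log2 scale, adjusted p = 4.20e-05 and 0.00509), though the level of *Wap* stayed under 6 CPM. The untested *Csn1s2b* and *Glycam1* had 40 and 3 UMIs over the 4 sums. *Csn2*, *Csn1s1*, *Csn1s2a*, *Csn3* and *Lalba* had been named by the study for parity in these mice, so their direction is not independent evidence. The study had also reported a rise of its lactation and immunity gene sets in C1, and in some cases in C3, strongest in progenitor cells.

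The upstream sequence of 3 casein genes is shown because these were the 3 largest rises by the naming rule, and because the motif of STAT factors, which carry the prolactin signal into the nucleus, can be looked for there. Each run holds the 250 bases before the RefSeq start site in GRCm38.p6, 5′ to 3′ on the strand of the gene, with capitals for the letters TTCNNNGAA.
Csn1s1 (chr5:87665958-87666207, plus strand): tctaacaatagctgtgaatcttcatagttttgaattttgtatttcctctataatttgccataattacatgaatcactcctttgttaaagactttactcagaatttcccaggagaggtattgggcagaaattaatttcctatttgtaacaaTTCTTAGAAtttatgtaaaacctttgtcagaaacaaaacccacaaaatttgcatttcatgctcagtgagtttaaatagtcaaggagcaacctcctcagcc
Csn2 (chr5:87699426-87699675, minus strand): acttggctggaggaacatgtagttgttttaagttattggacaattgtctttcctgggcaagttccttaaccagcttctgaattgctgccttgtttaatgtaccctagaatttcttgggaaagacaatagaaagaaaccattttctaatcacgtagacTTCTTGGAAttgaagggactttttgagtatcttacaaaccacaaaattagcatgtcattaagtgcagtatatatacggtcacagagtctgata
Csn1s2a (chr5:87774200-87774449, plus strand): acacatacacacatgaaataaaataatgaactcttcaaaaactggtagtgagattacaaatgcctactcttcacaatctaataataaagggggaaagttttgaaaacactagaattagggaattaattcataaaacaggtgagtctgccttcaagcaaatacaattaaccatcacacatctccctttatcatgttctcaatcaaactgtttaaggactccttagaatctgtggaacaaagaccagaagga
A match began 100 bases before the start of *Csn1s1* and 93 bases before that of *Csn2*, and the window before *Csn1s2a* held none. For *Csn1s2a*, 1 match ended after the start site used and so lay outside the window. Of the 8 milk protein genes 6 had a promoter in the table, and 3 of these (*Csn1s1*, *Csn2* and *Glycam1*) held a match. The motif reads the same on both strands and was found in 7.02% of 32851 promoter windows of that length, in 5.8% of those of genes tested, in 5.73% of those of genes called higher in PI and in 6.92% of those of genes called lower. The full oestrogen response element was in none of the windows of the 16 oestrogen and progesterone targets with a promoter, in none of those of tested genes and in 0.0639% of all windows. A match is a description of the letters and no evidence of binding.

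Genes for making and secreting milk fat rose with the caseins. Of 21 tested genes 14 were higher in PI and 1 was lower, with a median of 1.15. *Plin2*, a coat protein of lipid droplets, was at 59.2 and 51.7 CPM in NP and 688 and 627 CPM in PI mice. The mice of the groups were well apart (log2 fold change 3.56 ± 0.16, adjusted p = 1.19e-07). *Btn1a1* and *Xdh*, whose proteins form the complex that wraps the milk fat globule, were higher in both PI mice. *Btn1a1* was at 9.84 and 5.68 CPM in NP and 80.4 and 96.3 CPM in PI mice, and *Xdh* at 11.2 and 8.37 CPM in NP and 65.8 and 47 CPM in PI mice. Their log2 fold changes were 3.46 ± 0.22 and 2.45 ± 0.22 (adjusted p = 1.37e-06 and 2.54e-05). *Mfge8*, a globule protein that also marks dying cells for engulfment, rose from 574 and 475 CPM to 2683 and 2129 CPM (log2 fold change 2.19 ± 0.19, adjusted p = 1.83e-05). *Cd36* and *Lpl*, which bring fatty acids into the cell, lay below 1 CPM in NP mice and at 12 and 20.1 CPM and 19.8 and 16.5 CPM in PI mice (4.56 ± 0.47 and 4.21 ± 0.37 on the log2 scale, adjusted p = 6.13e-05 and 1.93e-05). *Scd1*, a fatty acid desaturase, was at 69.8 and 84 CPM in NP and 486 and 351 CPM in PI mice (log2 fold change 2.44 ± 0.18, adjusted p = 5.09e-06). *Dgat2*, which joins the last fatty acid to a triglyceride, went the other way, at 36 and 36.5 CPM in NP and 21.4 and 24.2 CPM in PI mice (log2 fold change -0.64 ± 0.16, adjusted p = 0.0205). Its call was lost without NP mouse 1 (-0.65, adjusted p = 0.128) and without NP mouse 2 (-0.64, adjusted p = 0.119). The study had named *Xdh*, *Cd36*, *Cidea*, *Lipa* and *Mfge8* for parity. *Pdk4* and *Cel*, which are in no list, were among the 15 largest rises by the naming rule. *Pdk4*, a kinase that holds back the use of glucose carbon, was at 6.81 and 6.88 CPM in NP and 292 and 529.8 CPM in PI mice (log2 fold change 5.92 ± 0.3, adjusted p = 4.45e-07). *Cel*, a lipase that is secreted into milk, was at 0.568 and 0.598 CPM in NP and 62.6 and 44.9 CPM in PI mice (log2 fold change 6.42 ± 0.35, adjusted p = 4.98e-07).

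Genes of the acute phase and of involution formed the third group of rises, with 11 of 18 tested genes higher, 1 lower and a median of 1.35, which stayed at 1.35 with *Saa2* set to its counting bound. *Hp*, haptoglobin, which binds free haemoglobin, was at 64.2 and 89.1 CPM in NP and 1464 and 2472 CPM in PI mice (log2 fold change 4.7 ± 0.28, adjusted p = 8.48e-07). *Lbp*, a binding protein for bacterial lipopolysaccharide, was at 2.65 and 2.39 CPM in NP and 59 and 45.1 CPM in PI mice (log2 fold change 4.3 ± 0.25, adjusted p = 8.48e-07). *Igfbp5*, which binds insulin-like growth factors and is known for its rise in the involuting gland, was at 257 and 331 CPM in NP and 1105 and 1069 CPM in PI mice. Both PI mice were above both NP mice, and close to each other (log2 fold change 1.89 ± 0.17, adjusted p = 2.25e-05). *Tgfb3*, a growth factor that is made when milk stasis begins, was at 7.95 and 9.57 CPM in NP and 29.2 and 47.4 CPM in PI mice (log2 fold change 2.21 ± 0.25, adjusted p = 0.000129). *Il4ra*, an interleukin receptor chain, was at 17.8 and 27.8 CPM in NP and 81.4 and 54.4 CPM in PI mice (log2 fold change 1.57 ± 0.23, adjusted p = 0.000997). The serum amyloid genes were low. *Saa1* had 3 UMIs in the NP mice against 140 in the PI mice, a ratio of 58.3 with a counting interval of 19.5 to 286. *Saa2* had 0 against 31, at least 12.9-fold higher in PI by a floor of 3 UMIs over the NP mice. *Socs3*, a feedback inhibitor of STAT3, fell from 289.9 and 322 CPM to 157 and 202 CPM (log2 fold change -0.76 ± 0.15, adjusted p = 0.00552). The study had named *Tgfb3* and *Mfge8*.

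Cathepsins and other enzymes of the lysosome, the compartment that breaks down proteins and fats, rose by less and more evenly. Of 17 tested genes 12 were higher and none was lower, with a median of 0.59. *Lipa*, the lysosomal acid lipase, was the largest at 5.49 and 6.28 CPM in NP and 75.2 and 72 CPM in PI mice (log2 fold change 3.65 ± 0.18, adjusted p = 4.39e-07). *Ctsc*, cathepsin C, followed at 12.1 and 8.37 CPM in NP and 43.3 and 44.5 CPM in PI mice (log2 fold change 2.06 ± 0.2, adjusted p = 4.14e-05). Of the 12, 9 had log2 fold changes under 1. The count of 12 was thin at its lower end, with 7 genes called without NP mouse 1 and 4 without NP mouse 2. *Lipa* and *Ctsc* had been named by the study.

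Secreted defence proteins of the milk and the duct rose in 10 of 14 tested genes and fell in 2, with a median of 1.69. *Lcn2*, lipocalin 2, which starves bacteria of iron carriers, was at 978 and 991 CPM in NP and 5106 and 5261 CPM in PI mice (log2 fold change 2.4 ± 0.19, adjusted p = 8.15e-06). *Ltf*, lactoferrin, was at 118 and 153 CPM in NP and 2016 and 1063 CPM in PI mice. Its PI mice differed from each other by more than the NP mice but stayed well above them (log2 fold change 3.5 ± 0.28, adjusted p = 9.86e-06). *Wfdc3*, a protein of the whey acidic protein family, was at 11.7 and 7.18 CPM in NP and 88.8 and 74.8 CPM in PI mice (log2 fold change 3.04 ± 0.21, adjusted p = 2.77e-06). *Pigr*, the receptor that carries IgA into milk, was at 1.14 and 0.598 CPM in NP and 13.1 and 10.1 CPM in PI mice (log2 fold change 3.56 ± 0.44, adjusted p = 0.00027). *Trf*, transferrin, a carrier of iron outside the list, was among the 15 largest rises at 368 and 358 CPM in NP and 4342 and 5623 CPM in PI mice (log2 fold change 3.78 ± 0.21, adjusted p = 6.45e-07). *Dmbt1*, a scavenger glycoprotein of mucosal surfaces, fell from 349 and 294 CPM to 39.7 and 76 CPM (log2 fold change -2.41 ± 0.23, adjusted p = 3.35e-05). So did *C3*, the central complement protein, from 65.1 and 38.3 CPM to 19.8 and 21.2 CPM (log2 fold change -1.35 ± 0.24, adjusted p = 0.00276). All 10 rises and both falls of this list were called again when each mouse was left out in turn.

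Antigen presentation genes shifted upwards by smaller amounts. Of 21 tested genes 8 were higher and none lower, with a median of 0.66. *H2-Q7*, a class I molecule, was at 25.6 and 20.0 CPM in NP and 103 and 55.2 CPM in PI mice (log2 fold change 1.72 ± 0.26, adjusted p = 0.00108). *Psmb8*, a subunit of the immunoproteasome, was at 159 and 136 CPM in NP and 253 and 253 CPM in PI mice (log2 fold change 0.78 ± 0.13, adjusted p = 0.00251). Class I genes are near-identical copies whose reads may be hard to assign to 1 gene, so single members are uncertain. Only 2 of the 8 passed without NP mouse 2. Interferon response genes gave 2 higher of 19 tested, with a median of -0.14.

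**Figure D2:**
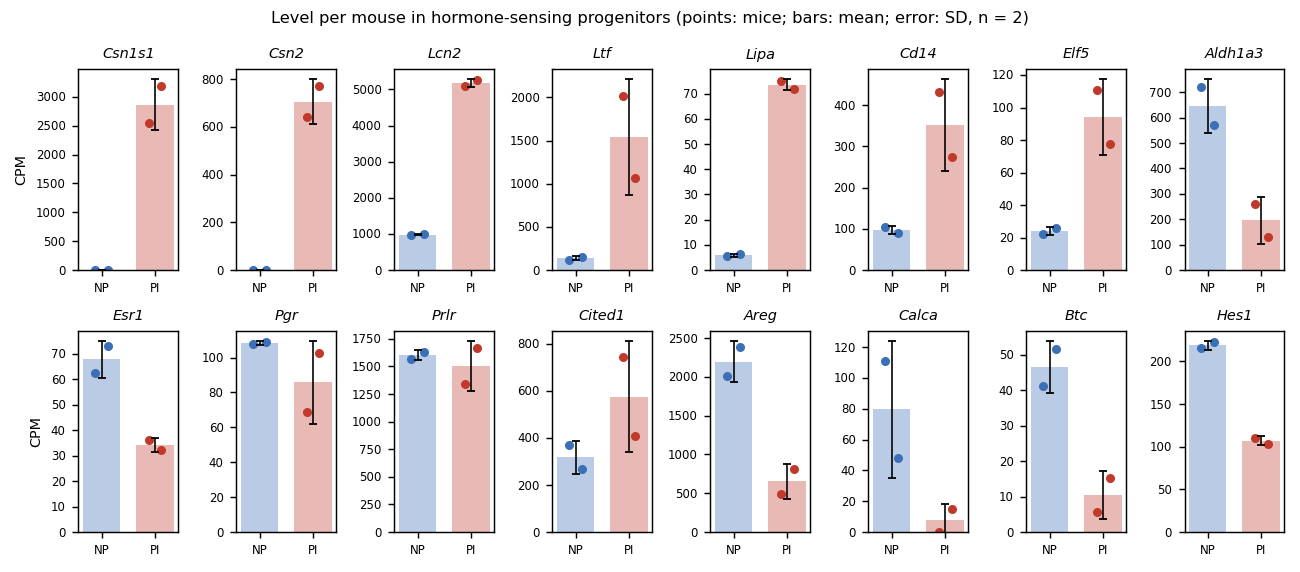
Level in CPM of 16 genes in the Hsp cells of each mouse (points), with the mean (bar) and SD (n = 2) of NP in blue and PI in red, on linear axes that begin at 0. The upper row holds genes that rose together with *Aldh1a3*, which fell, and the lower row shows *Esr1*, *Areg*, *Btc* and *Hes1* lower in both PI mice while *Prlr* overlaps between the groups.

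Genes of luminal progenitors did not move as 1 group. Of 19 tested, 10 rose and 4 fell, with a median of 0.61. The key gene *Aldh1a3*, a retinaldehyde dehydrogenase used to mark these progenitors, fell from 722 and 572 CPM in the NP mice to 262 and 132 CPM in the PI mice (log2 fold change -1.75 ± 0.26, adjusted p = 0.000898). *Kit*, a receptor tyrosine kinase, overlapped at 28.6 and 30.5 CPM in NP and 21.4 and 32 CPM in PI mice (log2 fold change -0.07 ± 0.19, adjusted p = 0.844). The third key gene, *Cd14*, a co-receptor for lipopolysaccharide, was at 104 and 89.7 CPM in NP and 431 and 273 CPM in PI mice and rose (log2 fold change 1.84 ± 0.2, adjusted p = 9.24e-05). *Elf5*, the transcription factor that drives the secretory fate, was at 22.3 and 26 CPM in NP and 111 and 77.4 CPM in PI mice, which placed both PI mice above both NP mice (log2 fold change 1.94 ± 0.19, adjusted p = 4.60e-05). *Foxc1*, a forkhead factor, was at 21 and 20.3 CPM in NP and 52.2 and 45.8 CPM in PI mice (log2 fold change 1.22 ± 0.16, adjusted p = 0.000418). The surface protein *Cd55* was at 47.3 and 46.6 CPM in NP and 141 and 108 CPM in PI mice, and *Tspan8* at 39.9 and 34.1 CPM in NP and 83 and 76.8 CPM in PI mice (1.39 ± 0.16 and 1.09 ± 0.15 on the log2 scale, adjusted p = 0.000129 and 0.000503). *Hmga1*, a chromatin protein, fell from 56.8 and 62.8 CPM to 31.9 and 26.8 CPM (log2 fold change -1.05 ± 0.16, adjusted p = 0.00104). *Creb5* fell as well (log2 fold change -1.09 ± 0.22, adjusted p = 0.00696), but not without NP mouse 1 (-0.64, adjusted p = 0.0848). The 3 markers that define the progenitor label thus gave 1 fall, 1 rise and 1 gene that did not pass.

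The receptors that define hormone-sensing cells also differed among themselves. Of 10 tested hormone receptors 2 rose and 1 fell, with a median of 0.01. *Esr1*, the oestrogen receptor α (chr10:4611593-5005614), was at 62.6 and 73 CPM in NP and 36 and 32.2 CPM in PI mice. Both PI mice had about the same level, below both NP mice (log2 fold change -1.0 ± 0.16, adjusted p = 0.00123), and the call held without each of the 4 mice. *Pgr*, the progesterone receptor, was at 108 and 109 CPM in NP and 68.9 and 103 CPM in PI mice and did not pass (log2 fold change -0.3 ± 0.17, adjusted p = 0.249). Without PI mouse 2 it passed (-0.65, adjusted p = 0.00731), which leaves the PI mouse in dioestrus as the only one of its group. *Prlr*, the prolactin receptor, overlapped at 1568 and 1633 CPM in NP and 1341 and 1665 CPM in PI mice (log2 fold change -0.09 ± 0.17, adjusted p = 0.773). *Vdr*, the vitamin D receptor, rose from 24.8 and 36.2 CPM to 68.4 and 64.3 CPM (log2 fold change 1.14 ± 0.18, adjusted p = 0.00143). *Cyp24a1*, the enzyme that breaks down active vitamin D, was among the largest rises at 0.568 and 1.5 CPM in NP and 19.3 and 69.1 CPM in PI mice (log2 fold change 5.66 ± 0.65, adjusted p = 0.000143).

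Transcription factors of the hormone-sensing lineage gave 3 rises and 4 falls in 14 tested genes (median -0.27). *Tox2*, a nuclear factor of the HMG family, fell most, from 47.1 and 49.9 CPM to 7.83 and 14.9 CPM (log2 fold change -1.95 ± 0.22, adjusted p = 0.000129). *Hes1*, a repressor switched on by Notch signals, was at 215 and 222 CPM in NP and 111 and 104 CPM in PI mice (log2 fold change -1.03 ± 0.13, adjusted p = 0.000278). *Bhlhe41*, a repressor of the circadian clock, was at 276 and 378 CPM in NP and 185 and 139 CPM in PI mice (log2 fold change -1.02 ± 0.18, adjusted p = 0.00305). *Msx2*, a homeobox factor, rose from 36.9 and 41.9 CPM to 78.3 and 70.7 CPM (log2 fold change 0.92 ± 0.15, adjusted p = 0.00154). *Cited1*, a cofactor of the oestrogen receptor, was at 368 and 267 CPM in NP and 743 and 408 CPM in PI mice and passed (log2 fold change 0.85 ± 0.24, adjusted p = 0.0352), with the PI mouse in dioestrus the highest. It did not pass without NP mouse 2 (0.64, adjusted p = 0.201) or without PI mouse 1 (0.36, adjusted p = 0.19). *Foxa1* and *Gata3*, which open chromatin for the oestrogen receptor, did not pass. *Foxa1* was at 88.2 and 88.8 CPM in NP and 67.9 and 73.6 CPM in PI mice (adjusted p = 0.131). *Gata3* was at 99.2 and 122 CPM in NP and 139 and 142 CPM in PI mice (adjusted p = 0.112).

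Targets of oestrogen and progesterone and the paracrine signals sent by hormone-sensing cells fell in 6 and rose in 4 of 16 tested genes, with a median of -0.45. *Areg*, amphiregulin, the ligand through which oestrogen drives duct growth, was at 2009 and 2386 CPM in NP and 492 and 816 CPM in PI mice. Both PI mice were below both NP mice (log2 fold change -1.74 ± 0.23, adjusted p = 0.000396). *Calca*, which encodes calcitonin and is a target of progesterone, varied within both groups at 111 and 48.1 CPM in NP and 0 and 15.1 CPM in PI mice and passed in edgeR (log2 fold change -3.0 ± 0.54, adjusted p = 0.00335). It did not pass with DESeq2 (adjusted p = 0.592), and neither did *Nrg4*, given next (adjusted p = 0.111). Further named genes that did not pass with DESeq2, *Wnt4* among them, are given in the last section. *Greb1*, an early target of the oestrogen receptor, was low throughout at 6.25 and 12.6 CPM in NP and 0.522 and 1.41 CPM in PI mice (log2 fold change -2.94 ± 0.55, adjusted p = 0.004). *Wnt7b* fell from 84.4 and 75.7 CPM to 42.3 and 41.9 CPM (log2 fold change -0.93 ± 0.14, adjusted p = 0.00115). *Wnt4*, which carries the progesterone signal to basal cells, was at 101 and 122 CPM in NP and 68.4 and 76.2 CPM in PI mice (log2 fold change -0.61 ± 0.15, adjusted p = 0.0141). The call was lost without NP mouse 2 (-0.48, adjusted p = 0.163). *Ly6a*, the surface protein Sca-1, fell from 478 and 361 CPM to 121 and 194 CPM (log2 fold change -1.4 ± 0.21, adjusted p = 0.000983). Against these stood *Fxyd2*, a regulator of the sodium pump, which rose from 375 and 216 CPM to 1908 and 1773 CPM (log2 fold change 2.63 ± 0.24, adjusted p = 2.48e-05). *Prom1*, the surface protein CD133, rose from 59 and 52.6 CPM to 143 and 127 CPM (log2 fold change 1.26 ± 0.14, adjusted p = 0.000112), and *Igfbp5* is given above.

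The EGF family had a median of -0.56, with 4 of 11 tested genes lower and none higher. Beside *Areg*, *Btc*, betacellulin, was at 41.3 and 51.7 CPM in NP and 5.74 and 15.3 CPM in PI mice (log2 fold change -1.93 ± 0.27, adjusted p = 0.000699). *Nrg4*, a neuregulin, was at 11.9 and 29 CPM in NP and 1.57 and 5.44 CPM in PI mice (log2 fold change -2.19 ± 0.48, adjusted p = 0.00952). Of the receptors, *Erbb3* was at 68.3 and 73.6 CPM in NP and 47 and 49 CPM in PI mice (log2 fold change -0.56 ± 0.14, adjusted p = 0.0191). This call was lost without NP mouse 1 (-0.6, adjusted p = 0.083) and without NP mouse 2 (-0.5, adjusted p = 0.144). Without PI mouse 2 the count of lower genes was 6, and without PI mouse 1 it was 5.

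Among other signals, the TGF-β, BMP and activin list had 6 of 18 tested genes higher and none lower (median 0.33). *Bmp3*, a BMP antagonist, was at 8.14 and 7.48 CPM in NP and 27.1 and 49.4 CPM in PI mice (log2 fold change 2.36 ± 0.27, adjusted p = 0.000152). Of the BMP targets, *Id1* was at 6.06 and 5.98 CPM in NP and 17.2 and 39.5 CPM in PI mice and *Id2* at 36.1 and 34.7 CPM in NP and 88.2 and 136 CPM in PI mice (2.35 ± 0.34 and 1.69 ± 0.19 on the log2 scale, adjusted p = 0.000739 and 0.000129). *Hey1*, a Notch target, rose from 3.03 and 0.897 CPM to 30.8 and 25 CPM (log2 fold change 3.62 ± 0.34, adjusted p = 3.24e-05) while *Hes1* fell. Of 9 tested Notch genes 1 was higher and 2 were lower. *Igfbp7* was at 20.4 and 12.9 CPM in NP and 85.1 and 94.7 CPM in PI mice (log2 fold change 2.4 ± 0.19, adjusted p = 9.90e-06). It was 1 of 3 higher genes among 9 tested in the IGF axis, where 1 was lower. Of 9 tested metallothioneins and zinc transporters 3 were higher and 1 was lower, and the importers *Slc39a8* and *Slc39a14* were among those that rose. *Slc39a8* had 1 UMI in the NP mice against 158 in the PI mice, a ratio of 197 with a counting interval of 34.9 to 7840. *Slc39a14* was at 28.8 and 41.6 CPM in NP and 111 and 108 CPM in PI mice (log2 fold change 1.66 ± 0.17, adjusted p = 6.92e-05). Of 15 tested chemokines and cytokines 4 were higher and 3 lower. *Cxcl5*, which draws neutrophils, was at 15.9 and 12.6 CPM in NP and 166 and 59 CPM in PI mice (log2 fold change 2.88 ± 0.4, adjusted p = 0.000595). *Cxcl15*, a related chemokine, was at 182 and 154 CPM in NP and 257 and 408 CPM in PI mice (log2 fold change 1.0 ± 0.19, adjusted p = 0.00494). *Tnf*, the inflammatory cytokine, was at 66.6 and 52 CPM in NP and 34.5 and 22.6 CPM in PI mice (log2 fold change -1.14 ± 0.2, adjusted p = 0.00308).

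Lists of general cell state had between 0 and 3 calls in each direction. Cell division had 1 gene higher and 1 lower of 17 tested, luminal keratins and junctions 1 and 1 of 16, cholesterol synthesis 3 and 0 of 17, immediate early and stress genes 3 and 3 of 23, and linker and other polyadenylated histone genes 1 and 2 of 12. These counts stand beside the 16.2% called among all tested genes. *Krt8* and *Krt18*, keratins of all luminal cells, did not pass. *Krt8* was at 4885 and 4042 CPM in NP and 5174 and 5257 CPM in PI mice (adjusted p = 0.48) and *Krt18* at 8198 and 7187 CPM in NP and 9102 and 9126 CPM in PI mice (adjusted p = 0.468). Of 9 tested basal markers 1 was lower, *Krt5*, at 8.89 and 6.88 CPM in NP and 1.57 and 3.63 CPM in PI mice (log2 fold change -1.42 ± 0.4, adjusted p = 0.0316). It was not called in 3 of the 4 fits that left out a mouse, without NP mouse 1 (adjusted p = 0.245), NP mouse 2 (0.0558) and PI mouse 1 (0.0615). Of 2 tested endothelial markers 1 was lower, and none of 4 fibroblast, 1 red cell and 1 adipocyte markers passed, while no immune marker was high enough to be tested. Without PI mouse 2, 5 basal markers were called lower. In 6 of the 9 basal markers the change in Hsp cells was above that in Hsd cells at an adjusted p under 0.05. This was in the test over 3 cell types given last. The part of basal transcripts in the other results was not tested.

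The largest falls by the naming rule were partly in genes of uncertain counting. *Gm17416*, a short gene model of 201 bases (chr2:152569338-152569538), had 304 UMIs in the NP mice and 0 in the PI mice, at least 81.2-fold lower in PI. *Sbp*, the spermine-binding protein, had 685 against 3 UMIs, a ratio of 183 with a counting interval of 62.3 to 889. Its reads may be hard to tell from those of the related gene *Sbpl*. *Gm17416* and *Sbp* were at 0 to 3.22 CPM in the Lp and Hsd cells of the PI mice. *Nme2*, a nucleoside diphosphate kinase, was at 68.5 and 53.2 CPM in NP and 5.22 and 10.3 CPM in PI mice (log2 fold change -2.82 ± 0.24, adjusted p = 1.63e-05). Its exons overlap those of the read-through model *Gm20390* on the same strand, so reads may be hard to assign to 1 of them. *3110079O15Rik* fell from 165 and 272 CPM to 25.6 and 6.25 CPM (log2 fold change -4.08 ± 0.41, adjusted p = 5.87e-05). *Ccl5*, a chemokine that draws T cells, was at 81.2 and 20.6 CPM in NP and 0.522 and 4.23 CPM in PI mice and varied within both groups (log2 fold change -4.07 ± 0.66, adjusted p = 0.00176). *Egln3*, an oxygen-sensing hydroxylase, was at 81.4 and 71.5 CPM in NP and 7.83 and 11.1 CPM in PI mice (log2 fold change -2.93 ± 0.19, adjusted p = 1.81e-06). *Edn1*, endothelin 1, was at 110.3 and 81.3 CPM in NP and 20.4 and 19.6 CPM in PI mice (log2 fold change -2.28 ± 0.19, adjusted p = 1.15e-05). *Adamts1*, a secreted protease, was at 210.5 and 133 CPM in NP and 36.5 and 34.1 CPM in PI mice (log2 fold change -2.3 ± 0.21, adjusted p = 2.66e-05). *R3hdml*, *Sdpr*, *Tnip3*, *Nrxn3* and *S100a3* completed the 15, with log2 fold changes between -3.27 and -2.33.

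Of the largest rises not described so far, *Spp1*, osteopontin, was at 0.379 and 3.89 CPM in NP and 785 and 1377 CPM in PI mice (log2 fold change 9.23 ± 0.48, adjusted p = 4.45e-07), and NP mouse 1 held the lowest level. *Cck*, the hormone cholecystokinin, was at 24.4 and 24.2 CPM in NP and 356 and 565 CPM in PI mice (log2 fold change 4.25 ± 0.22, adjusted p = 4.45e-07). *Hilpda*, which holds lipid in droplets under low oxygen, was at 37.7 and 40.1 CPM in NP and 473 and 754 CPM in PI mice (log2 fold change 3.99 ± 0.22, adjusted p = 6.45e-07). Exons of *Trf*, *S100a3*, *Prlr* and *Gata3*, like those of *Nme2*, overlap another counted gene on the same strand. The levels of these genes are uncertain to the extent that reads could not be assigned to 1 gene. Those of *Spp1* overlap a model that is not in the count tables, by its exons. Exons of several other named genes, *Cyp24a1* among them, overlap a gene on the other strand. *Aoc1*, an amine oxidase, was uneven in the PI mice at 7.19 and 3.89 CPM in NP and 21.4 and 223 CPM in PI mice (log2 fold change 4.49 ± 0.79, adjusted p = 0.00282). *Tmprss6*, a membrane protease, was even at 2.84 and 2.39 CPM in NP and 43.9 and 56 CPM in PI mice (log2 fold change 4.24 ± 0.25, adjusted p = 8.06e-07).

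Beside Lp and Hsd cells of the same mice, the level of a gene in Hsp cells was compared with the mean of both. Here the levels of all 3 cell types are CPM of their own sums, without TMM scaling. Across 10677 genes the Pearson correlation of log2(CPM + 1) between Hsp cells and the mean of Lp and Hsd cells was 0.989 and 0.985 in the NP mice and 0.985 and 0.992 in the PI mice, against 0.913 to 0.935 with Lp cells alone and 0.9 to 0.956 with Hsd cells alone. These correlations run across genes, and the points share library, depth and batch. The Hsp level was within 1.5-fold of that mean in all 4 mice in 8679 of 10677 genes (81.3%), in 2332 of the 2389 genes at 50 CPM or more in every Hsp sum (97.6%), in 81 of 134 called list genes (60.4%) and in 11 of the 30 largest rises and falls of the naming rule (36.7%). Of 5667 genes at 20 CPM or more in PI mice, either in Hsp cells or in the mean of Lp and Hsd (average of both mice), 2 lay above the mean of Lp and Hsd by over 1.5-fold in both PI mice (*Matn4* and *Tpm2*) and 2 below it (*S100a8* and *Gm15856*), names given after their values were seen. Of 1745 genes at least 2-fold apart between Lp and Hsd in all 4 mice, 1559 (89.3%) had an Hsp level between them in every mouse, against 3848 (36%) of all tested genes.

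**Figure D3:**
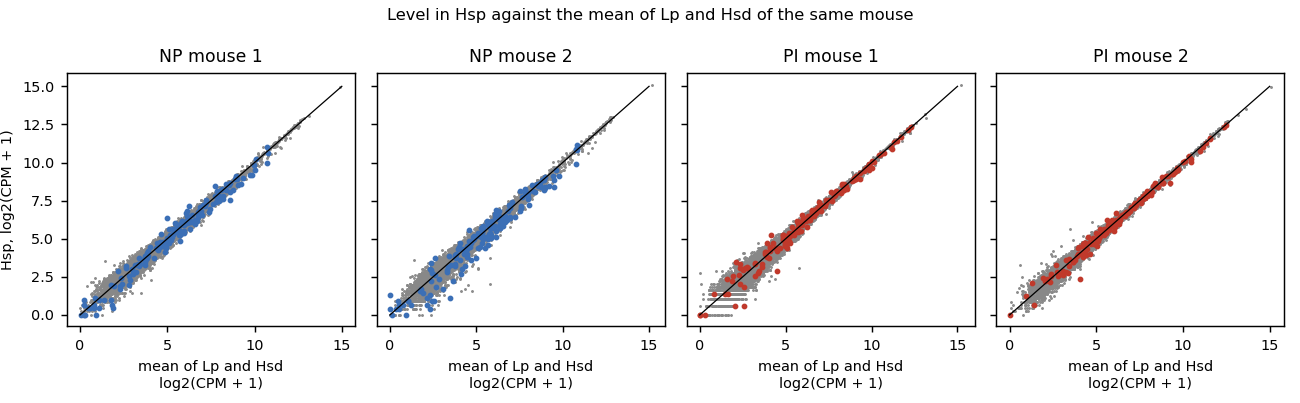
Level of each of 10677 genes in Hsp cells (vertical, log2(CPM + 1)) against the mean of the Lp and Hsd levels of the same mouse (horizontal, same scale), 1 panel per mouse, with list and named genes that passed the test in colour and the line of equal levels in black. Points follow the line in all 4 mice, with correlations of 0.985 to 0.992.

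Of the 1735 genes called between PI and NP, 898 (51.8%) had an Hsp level between Lp and Hsd in every mouse, and 1346 (77.6%) were within 1.5-fold of the mean in every mouse. *Csn2* in the PI mice was at 1296 and 1683 CPM in Lp cells and 6.9 and 9.27 CPM in Hsd cells, with Hsp cells in between. *Lcn2* was at 9996 and 10300 CPM in Lp cells and 71.1 and 49.1 CPM in Hsd cells, and *Trf* at 8998 and 11190 CPM and 42.6 and 42.7 CPM. The Hsp level was below the Lp level and above the Hsd level in both PI mice for these 3 genes. *Areg* fell in Hsd cells from 3216 and 3479 CPM to 989 and 1595 CPM and in Lp cells from 154 and 168 CPM to 21.5 and 29.1 CPM. *Tmprss6* rose in Hsd cells from 3.87 and 4.0 CPM to 117 and 105 CPM and was under 2 CPM in Lp cells of all 4 mice. *Aldh1a3*, held by Lp cells, fell there from 2035 and 1759 CPM to 396 and 287 CPM. *Esr1* also fell in Hsd cells, from 80.3 and 91 CPM to 75 and 47.8 CPM (adjusted p = 0.0488 in edgeR). It rose in Lp cells from 5.13 and 6.63 CPM to 13.9 and 15.2 CPM.

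**Figure D4:**
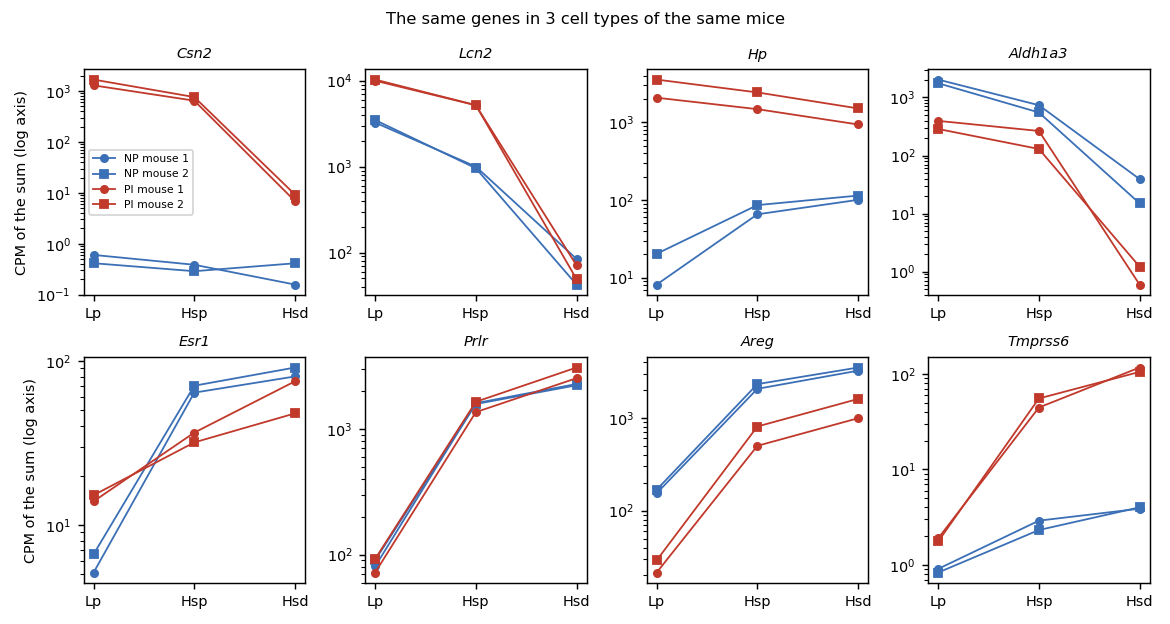
Level of 8 genes in Lp, Hsp and Hsd cells of each mouse (1 line per mouse, NP in blue and PI in red, circles for mouse 1 and squares for mouse 2, log axes in CPM). In the PI mice the Hsp level lies between those of Lp and Hsd in all 8 genes.

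Whether parity changed Hsp cells differently from the cells on either side was tested in 1 model over the 12 sums of Hsp, Lp and Hsd cells, with the mouse as a term. The change differed from that of Lp cells in 434 of 11748 genes (3.69%), with 201 above (1.71%) and 233 below (1.98%). It differed from that of Hsd cells in 496 genes (4.22%), with 352 above (3%) and 144 below (1.23%). Without NP mouse 1 these counts were 126 and 185, without NP mouse 2 they were 106 and 254, and without the mouse as a term they were 93 and 123. By list, the signed difference of the log2 changes (Hsp minus Hsd) was positive in 12 of 18 acute phase genes, 10 of 21 milk fat genes, 9 of 14 defence genes and 7 of 19 progenitor genes, and negative in 0, 1, 1 and 0. Against Lp cells, at the same threshold, it was positive in 2, 0, 1 and 1 of these and negative in 3, 1, 1 and 0. The other genes of these lists did not pass, whatever the sign of their difference. A positive difference can be a smaller fall, as in *C3*, which changed by -1.35 in Hsp, -2.08 in Lp and -3.35 in Hsd cells. A level at the mean of Lp and Hsd also gives differences wherever these cell types change unequally. The test cannot tell such a level from a change particular to Hsp cells. With 1 CPM added to both, the Hsp level over the 4 mice was 0.959 to 1.28 times that mean in *Hp*. It was 0.969 to 1.2 times the mean in *Slc38a1* and 0.55 to 0.949 times in *Bglap3*.

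*Hp* was the gene named by the rule whose change lay furthest below that in Lp cells. It rose in Lp cells from 8.15 and 20.3 CPM to 2085 and 3571 CPM and in Hsd cells from 101 and 114 CPM to 943 and 1518 CPM, and its change in Hsp cells was smaller than in Lp cells (difference -3.12, adjusted p = 3.49e-09) and larger than in Hsd cells (1.21, adjusted p = 3.86e-05). The change of *Esr1* in Hsp cells was below that in Lp cells, where it rose (difference -2.41, adjusted p = 3.25e-05). Its difference from the change in Hsd cells did not pass (-0.4, adjusted p = 0.248). *Epb41l3*, a protein of the membrane skeleton, had the largest positive difference from Lp cells among the genes named by the rule. It was at 5.21 and 5.28 CPM in NP and 14.2 and 10.9 CPM in PI Hsp cells, on the scale of the 12 sums, where Lp cells went from 12.9 and 9.06 to 1.13 and 0.926 CPM and Hsd cells from 1.33 and 1.39 to 22.9 and 25.3 CPM. *Slc38a1*, a glutamine transporter, fell in Hsp cells from 63.4 and 60.5 to 32.4 and 30.7 CPM and in Lp cells from 43.5 and 32.9 to 0.99 and 1.46 CPM. *Emb*, embigin, rose in Hsp cells from 2.6 and 0.88 to 22.8 and 24.9 CPM with no such rise in Lp cells, at 3.51 and 1.24 against 1.13 and 2.91 CPM. *Bglap3*, a gene of the osteocalcin family, rose less in Hsp than in Hsd cells, from 26.8 and 32.6 to 70.8 and 92.9 CPM against 2.35 and 1.9 to 115 and 170 CPM, and fell in Lp cells from 97.3 and 111 to 39.7 and 35.8 CPM.

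**Figure D5:**
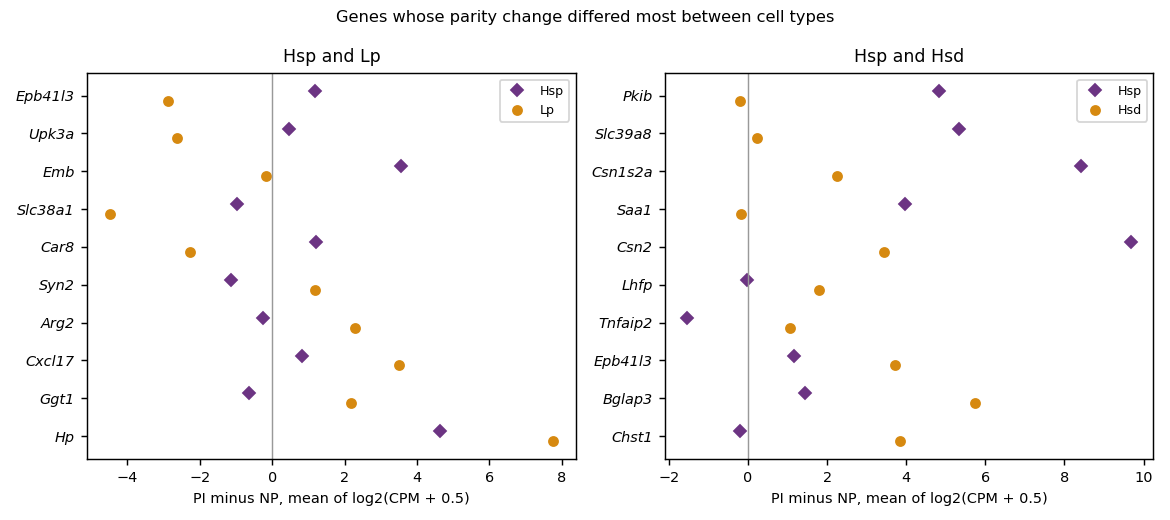
Change from NP to PI (difference of the means of log2(CPM + 0.5) over 2 mice each) in Hsp cells (purple diamonds) and in Lp or Hsd cells (orange circles) for the 10 genes named per comparison. The Hsp point of *Slc38a1* is at a smaller fall than the Lp point, and the Hsp points of *Csn2* and *Csn1s2a* lie far to the right of the Hsd points.

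Counted by cell, milk transcripts were spread over most PI Hsp cells. A *Csn2* UMI was found in 79.4% (exact binomial interval 70.5% to 86.6%) and 82.9% (78.7% to 86.5%) of the Hsp cells of the PI mice, and in 0.755% and 0.592% of those of the NP mice. In basal cells (C12) of the same PI mice, which should lack it, the shares were 3.7% of 27 and 7.55% of 53 cells, at median depths of 3884 and 4427 UMIs. At an equal depth of 5000 UMIs a cell, the PI shares were 69.9% and 73.4%. The basal shares at that depth were 0% of 4 and 13.6% of 22 cells, which are few cells. *Csn1s1* was found in 97.2% and 99.2% of PI and 2.64% and 1.78% of NP Hsp cells, and in 18.5% and 22.6% of PI basal cells. *Prlr* was found in all Hsp cells of the 4 mice, and in 34.1%, 30.9%, 0% and 30.2% of their basal cells. *Esr1* was found in 62.3% and 66.9% of NP and 45.8% and 30.4% of PI Hsp cells, and in 26.7%, 30.2%, 19.4% and 15.9% after thinning. Its shares in basal cells were 6.75%, 8.87%, 0% and 7.55% unthinned and 1.84%, 3.67%, 0% and 9.09% thinned. *Aldh1a3* was found in 92.5% and 91.7% of NP and 55.1% and 45.2% of PI Hsp cells, and in 79.8%, 72.8%, 40.8% and 32.8% after thinning. The basal shares of *Aldh1a3* were 20.2%, 12.4%, 0% and 1.89% unthinned and 19.4%, 11%, 0% and 4.55% thinned. Shares of cells were not tested, and the intervals cover counting error only.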

How the data were processed

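Libraries were made with 10x Chromium from 1 mouse each. The authors deposited raw UMI counts for every gene in every barcode, produced by Cell Ranger with STAR alignment to mm10 (versions not given in the sources used here) and not normalised. Their annotation gives clusters, quality flags and, as a deposited fraction, each cell's share of mitochondrial UMIs, used here only through the flag. They removed barcodes found in more than 1 library. The combined matrix was not used. Counts were summed per mouse over Hsp (C1 in PI, C2 in NP), Lp (C7, C6) and Hsd (C3, C4) cells. Genes were tested with edgeR 4.0.16 in R 4.3.3 (filterByExpr, minimum count 10 and total 15, TMM, quasi-likelihood F-test, Benjamini-Hochberg, 0.05; residual df 2, prior df 9.74). SE of a log2 fold change is its size divided by the square root of F. The members and 28 gene lists were chosen with earlier results of these data known. Named genes were the 15 largest rises and falls past the test with 20 CPM in 1 group and no overlap between mice, 5 each way per cell type difference, and list members, from which the text gives examples. A further result is not reported here. On simulated counts 73% of 2-fold and 97% of 4-fold changes between PI and NP sums were recovered, with 3.41% of the 176 calls there false. Every simulated gene had the common dispersion of the fit, so genes that vary more between mice were not covered. The share of false calls among the 1735 genes called in the mice was not tested. DESeq2 1.42.0 was an alternative, beside other scalings, filters, sets of cells and left-out mice. Positions come from GENCODE vM21 (GRCm38) by gene ID, and drawing and intervals used Python 3.11.15 with scipy 1.17.1.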

Additional observations from a re-analysis of the deposited data

Results flagged for a closer look

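These genes changed with parity by different amounts in Hsp cells and in another cell type of the same mice, by a test of the difference itself (change in Hsp minus change in the other, log2, adjusted p under 0.05 in edgeR). As stated above, this test cannot tell a change particular to Hsp cells from a level at the mean of Lp and Hsd. Against Lp cells the change in Hsp cells was higher by 4.62 in *Epb41l3*, 4.44 in *Upk3a*, 4.01 in *Emb*, 3.95 in *Slc38a1*, 3.58 in *Car8*, 3.1 in *Tmprss6*, 1.08 in *Adamts1* and 0.728 in *Cck*. It was lower in *Hp* (-3.12), *Ggt1* (-2.84), *Cxcl17* (-2.79), *Arg2* (-2.78), *Syn2* (-2.71) and *Tnip3* (-1.92).

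Against Hsd cells the change in Hsp cells was higher by 9.98 in *Pkib*, 6.71 in *Slc39a8*, 6.66 in *Csn1s2a*, 6.18 in *Saa1*, 6.12 in *Csn2*, 4.02 in *Csn1s1*, 3.7 in *Cel*, 3.54 in *Pdk4*, 3.47 in *Lbp*, 3.11 in *Cck*, 2.24 in *Trf*, 1.55 in *Hilpda* and 1.21 in *Hp*. *Pkib*, *Saa1*, *Csn2* and *Slc39a8* had at most 3 UMIs in NP Hsp cells, so that the size of these differences depends on the fit. The change was lower in *Chst1* (-5.25), *Bglap3* (-4.59), *Epb41l3* (-2.94), *Tnfaip2* (-2.64), *Lhfp* (-1.84), *Calca* (-1.59) and *Nrxn3* (-0.789).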

How the results depend on the processing

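With 2 mice a group an exact permutation test cannot go below p = 0.333, so every call rests on the spread shared between genes by edgeR. In the comparison of Hsp cells, 807 genes (529 higher, 278 lower in PI) were called by DESeq2, 127 (102, 25) by a test against a 2-fold change at 0.01, 796 (455, 341) after thinning each cell to 5000 UMIs, 999 (591, 408) at 107 cells a mouse and 744 (436, 308) in cells at or below the median UMI total. The last 3 use fewer UMIs, and for DESeq2 the cause was not tested. Leaving out 1 mouse gave 825 to 1852 genes (503 to 1069 higher, 322 to 783 lower), lowest without NP mouse 1 (825) and NP mouse 2 (862). Upper-quartile scaling, RLE scaling, no filter, the study's filter, C1 and C2 together, C1 to C4 together and a shared dispersion stayed within 1.5 times. That holds for the counts. Of the 1735 genes, 1083 were called again in C1 to C4 together, and 1558 to 1731 in the other settings of that sentence. The change differing from Lp gave 93 genes and that differing from Hsd 123 without the mouse as a term (no replicate block), against 434 and 496, and 106 to 390 and 185 to 551 with 1 mouse left out; the lowest were without NP mouse 2 (106) and NP mouse 1 (185). Of 156 called genes followed singly, 102 kept their call in all 4 leave-one-out fits. With DESeq2, 32 of the 156 did not pass. Among these were *Cited1* (adjusted p = 0.36), *Dgat2* (0.217), *Krt5* (0.203), *Erbb3* (0.155), *Saa1* (0.0871) and *Wnt4* (0.0586). The directions that turned were those of *Cdk1* in C1 to C4 together (-0.34), *Pgr* there (0.0405), *Prlr* thinned (0.00688), in low-UMI cells (0.0402), in C1 to C4 (0.152) and with 1 mouse left out (-0.25 to 0.0647), and *Kit* thinned (0.0234), at equal cell number (0.214) and with 1 mouse left out (-0.454 to 0.131); of these genes, *Cdk1* alone was called to begin with. The cause of these turns was not tested. The NP and PI mice share only a replicate number, with a correlation of deviations of -0.0528, and the replicate block gave 1647 genes (958 higher, 689 lower), 1546 of them called without it. It ended the call of 7 followed genes, *Krt5* (adjusted p = 0.052) and *Notch2* (adjusted p = 0.0612) among them. Depth limits genes under about 20 CPM, where PI mouse 1 has few UMIs.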
